A study of Mus musculus with 8 samples.

Results

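The haemoglobin genes Hba-a1, Hba-a2, Hbb-b1 and Hbb-b2, the haem synthesis gene Alas2 and the microRNAs miR-451a, miR-144-3p and miR-144-5p are products of red cells and their precursors, and they were followed in mouse brown adipose tissue. They were taken by name: 5 of the 22552 genes in the mRNA table and 3 of the microRNAs in the microRNA table. Wild-type mice (mmu-mir-193b +/+, WT) were compared with mice that lack the microRNA genes mir-193b and mir-365-1 (mmu-mir-193b -/-, Null), all 2 months old and of mixed 129SV::FVB/N::C57BL/6 strain. Per the labels, the line came from matings in which the floxed miR-193b allele met an MMTV-Cre transgene, a recombinase under a mammary tumour virus promoter, which was then bred out. The mRNA table holds 1 combined value per genotype for 3 WT and 3 Null libraries, named the WT and Null pools, and the microRNA table holds 1 WT and 1 Null library. No difference given here therefore has a replicate check, no test between genotypes could be made, and the mRNA values carry no error. The protocols in the labels mention no removal of blood before the RNA was extracted.

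Haemoglobin carries oxygen as a tetramer of alpha and beta chains, each holding a haem group. Precursors in the bone marrow make globin and haem in step, lose their nucleus, and enter the blood as reticulocytes that still hold globin mRNA and small RNAs. Alas2 is the red cell form of the first enzyme of haem synthesis, and Alas1 is the form used in other tissues. The microRNAs miR-144 and miR-451a come from 1 primary transcript that the erythroid factor GATA1 switches on, and miR-451a is among the most abundant microRNAs of red cells. Most microRNAs are cut out of a hairpin by Dicer. The paired stem of the miR-451a hairpin is too short for that, and the hairpin is cut by Ago2.

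The mature microRNAs are shown because their sequences identify the rows measured and set which mRNAs they can pair with. They are from RefSeq (GRCm38.p6), with bases 2 to 8, the seed that pairs with target mRNAs, in capitals.
miR-451a, chr11:78073186-78073207, plus strand: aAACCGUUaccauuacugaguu
miR-144-3p, chr11:78073047-78073066, plus strand: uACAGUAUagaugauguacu
miR-144-5p, chr11:78073010-78073032, plus strand: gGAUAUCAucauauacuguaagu
The seeds of the 3 microRNAs differed from each other, and none of the other listed microRNAs that matched RefSeq by name (323 listed rows matched) had the same bases 2 to 8. With bases 2 to 7 only, miR-101a-3p matched miR-144-3p.

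The hairpins are shown because the position of the mature strand separates the maturation routes. Mature strands are in capitals.
mir-144, chr11:78073005-78073070, plus strand: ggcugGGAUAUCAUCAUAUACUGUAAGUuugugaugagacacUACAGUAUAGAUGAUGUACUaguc
mir-451a, chr11:78073170-78073241, plus strand: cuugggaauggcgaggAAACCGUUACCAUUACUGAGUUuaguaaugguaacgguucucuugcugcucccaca
The hairpins lie 99 bases apart on the same strand. In the mir-144 hairpin, 66 bases long, the mature strands occupy bases 6 to 28 and 43 to 62 and leave the loop between them. In the mir-451a hairpin, 72 bases long, the mature strand occupies bases 17 to 38 and so runs past the midpoint at base 36 into the other arm.

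Of the mRNAs, 4 were higher in the Null pool and 3 of these were higher by 2-fold or more. Levels are in FPKM, fragments scaled by transcript length and library size, and differences are log2((Null + 1)/(WT + 1)) of FPKM over the 11597 genes whose mean reached 1 FPKM. Among all 11597 genes, 2.17% were higher in Null and 1.65% lower by 2-fold or more, 7.87% were higher and 6.75% lower by 1.5-fold or more, and the median difference was 0.01. The 4 genes above the expression limit passed it in each pool alone. Less RNA per cell and fewer cells of a type cannot be told apart in bulk tissue.

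Hba-a1, an alpha-globin gene, was the most abundant of these mRNAs at 96.4 FPKM in the WT pool against 270.0 FPKM in the Null pool. The Null value was 2.80 times the WT value, a difference of 1.48 on the log2 scale, and 83 of the 11597 genes had a difference at least as high. By level, Hba-a1 stood at rank 769 of 22552 in WT and rank 320 in Null. Ucp1, the uncoupling protein that marks brown fat, was 31.3 times as high as Hba-a1 in WT and 9.21 times as high in Null.

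Hba-a2, the other adult alpha-globin gene, was at 0.0995 FPKM in WT against 0.0822 FPKM in Null, below the expression limit in both. Its listed level was thus lower than that of Hba-a1 by a factor of 969 in WT and 3286 in Null. The alpha-globin genes are near-identical copies, and an mRNA fragment from either can fit both, so the split of alpha-globin between these rows is uncertain. The RefSeq windows around their start sites were identical at 297 of 297 overlapping bases. The windows begin 250 bases before the start, so most of this stretch is not part of the mRNA. The mRNA sequences were not compared.

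Hbb-b2, an adult beta-globin gene, was at 45.0 FPKM in the WT pool against 119 FPKM in the Null pool. That was 2.65 times the WT value, a log2 difference of 1.39. Hbb-b1, its adult partner gene, was at 10.1 FPKM in WT against 66.3 FPKM in Null. Its ratio of 6.59 and log2 difference of 2.61 were the highest among the members, and 39 of the 11597 genes were at or above it. Among the beta-globin genes the order of the levels was the same in both pools, with Hbb-b2 above Hbb-b1.

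The balance within the beta-globin pair was not the same in the pools. Hbb-b1 made up 18.3% of the FPKM of the pair in WT and 35.7% in Null, and the ratio of Hbb-b2 to Hbb-b1 went from 4.48 to 1.80. Inbred mouse strains carry different versions of this gene pair, and the labels give a mixed strain for every sample. Which sequences the authors' rows of this pair stand for, how their counting treated reads common to the pair, and which alleles the mice carried was not tested. Alpha- and beta-globin were nearer to balance: Hba-a1 was 1.75 times the sum of Hbb-b1 and Hbb-b2 in WT and 1.45 times that sum in Null. The 4 adult globin genes together were at 152 FPKM in WT against 456 FPKM in Null, 3.01 times as high. They were 0.0298% and 0.0772% of all FPKM in the table.

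Alas2 was the lowest of the members above the expression limit, at 6.12 FPKM in the WT pool against 13.1 FPKM in the Null pool. The ratio was 2.14. On the log2 scale with 1 FPKM added the difference was 0.98, just under the 2-fold line, and 265 of the 11597 genes were at or above it. With 0.1 FPKM added it was 1.08, and with quantile normalization 1.03, both past that line. In order of difference the members ran Hbb-b1, Hba-a1, Hbb-b2 and Alas2, and without replicates the error of this order is not known.

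**Figure D1:**
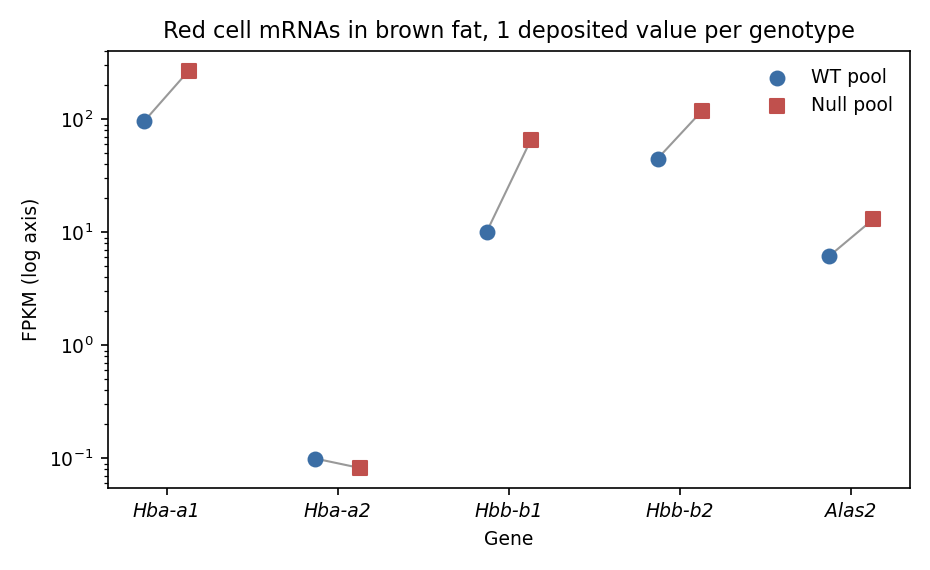
Level of each red cell mRNA in FPKM (log axis) in the WT pool (circles) and the Null pool (squares), 1 deposited value per genotype and no error bars. Hba-a1, Hbb-b1, Hbb-b2 and Alas2 are higher in Null, and Hba-a2 is near 0.1 FPKM in both.

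The promoters of Hba-a1 and Alas2 are shown because these genes were higher together and the windows show which letters they have in common. Each is the 250 bases before the start site from RefSeq (GRCm38.p6), and capitals mark matches on either strand to 4 motifs: the GATA factor motif (AGATAA as its first form, AGATAG as another, TGATAA as another and TGATAG as the last), the CACCC-box motif of KLF factors (CCNCNCCC), the CCAAT box, and the TATA box (searched as TATAA).
Hba-a1, chr11:32283422-32283671, plus strand: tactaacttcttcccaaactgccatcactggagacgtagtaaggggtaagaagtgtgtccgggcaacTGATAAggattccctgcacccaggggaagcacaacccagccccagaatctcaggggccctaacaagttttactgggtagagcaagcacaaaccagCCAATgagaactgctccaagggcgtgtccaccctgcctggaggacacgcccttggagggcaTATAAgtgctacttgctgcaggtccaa
Alas2, chrX:150547167-150547416, plus strand: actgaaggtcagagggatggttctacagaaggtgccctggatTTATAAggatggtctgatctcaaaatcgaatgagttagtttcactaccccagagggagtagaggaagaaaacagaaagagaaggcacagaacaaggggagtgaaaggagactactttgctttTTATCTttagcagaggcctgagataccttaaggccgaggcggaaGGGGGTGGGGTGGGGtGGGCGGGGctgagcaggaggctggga
The windows of Hba-a1 and Alas2 each held a match to the GATA factor motif, at 183 to 178 bases before the start in Hba-a1 and at 86 to 81 bases in Alas2. The window of Hba-a2 held the same match as Hba-a1. Of the adult beta-globin genes that RefSeq lists as Hbb-bs and Hbb-bt, the window of Hbb-bs held a match to it and that of Hbb-bt none, and no window is shown for Hbb-b1 or Hbb-b2. Such letters occurred in 26.5% of all 32851 promoter windows of this length. Hba-a1 also held CCAAT (33.8% of all windows), which Alas2 did not, and TATAA at 27 to 23 bases (22.8%). The window of Alas2 held TATAA too, farther off at 207 to 203 bases, with an overlapping match on the other strand at 208 to 204 bases. Alas2 held 4 matches to CCNCNCCC, which overlap in part, and 45.9% of all windows held at least 1. A match describes letters in these windows and is not a measured site.

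On the microRNA side, all 3 rows of the cluster of mir-144 and mir-451a were higher in the Null library, and none reached 2-fold. Levels are in RPM, reads scaled to a total that was inferred here from the values. That total is below the number of reads the listed microRNAs imply (22836670 against 35611070 in WT, and 24348848 against 38435013 in Null). Whether some reads were counted more than once was not tested, and the intervals below take each as counted once. Differences are log2((Null + 1)/(WT + 1)) over the 323 microRNAs whose mean reached 10 RPM. Of these 323, 0.619% were higher in Null and 4.64% lower by 2-fold or more, and 8.05% were higher and 6.19% lower by 1.5-fold or more. The median over all 323 was 0.17, so the members are also given relative to it. Intervals are 95% exact intervals from the reads that the values imply, and they cover counting error only.

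miR-451a was at 3653 RPM in the WT library, with an exact Poisson interval of 3629 to 3678, and at 6343 RPM (6312 to 6375) in the Null library. These values rest on 83430 and 154450 implied reads. The ratio was 1.74, with 1.72 to 1.75 as its exact Clopper-Pearson interval, and the log2 difference of 0.80 was 0.62 above the median of all microRNAs. By difference it stood at rank 9 of 323, and by level at rank 47 in WT and rank 35 in Null.

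miR-144-3p, from the 3′ arm of the mir-144 hairpin, was at 425 RPM (416 to 433) in WT and 765 RPM (754 to 776) in Null. Its ratio of 1.80 (1.76 to 1.85) was the highest of the 3, and its log2 difference was 0.85, or 0.67 above the median. miR-144-5p, from the 5′ arm, was at 377 RPM (369 to 385) in WT and 493 RPM (484 to 502) in Null. The ratio was 1.31 (1.27 to 1.34) and the log2 difference 0.38, which was 0.21 above the median. For each of the 3, the counting intervals of the libraries did not overlap. That also held for miR-150-5p at a ratio of 1.03, with 10971 to 11057 RPM in WT and 11314 to 11399 RPM in Null. Intervals of the less abundant miR-96-5p, ratio 1.05, overlapped, with 75.7 to 83.1 RPM in WT and 79.6 to 86.9 RPM in Null. The share of all microRNAs without overlap was not counted, so whether this sets the members apart is not known.

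The products of the shared transcript did not all keep their proportions. miR-451a was 8.60 times as abundant as miR-144-3p in WT and 8.29 times in Null. The ratio of miR-144-3p to miR-144-5p was 1.13 in WT and 1.55 in Null. With 1 library per genotype, whether these ratios differ by more than mice do is not known. In the authors' deposited table, miR-451a had a p of 0.0545 and an adjusted p of 1, miR-144-3p a p of 0.0384 and an adjusted p of 0.878, and miR-144-5p a p of 0.529 and an adjusted p of 1. Those p-values compare these libraries and not groups of mice.

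**Figure D2:**
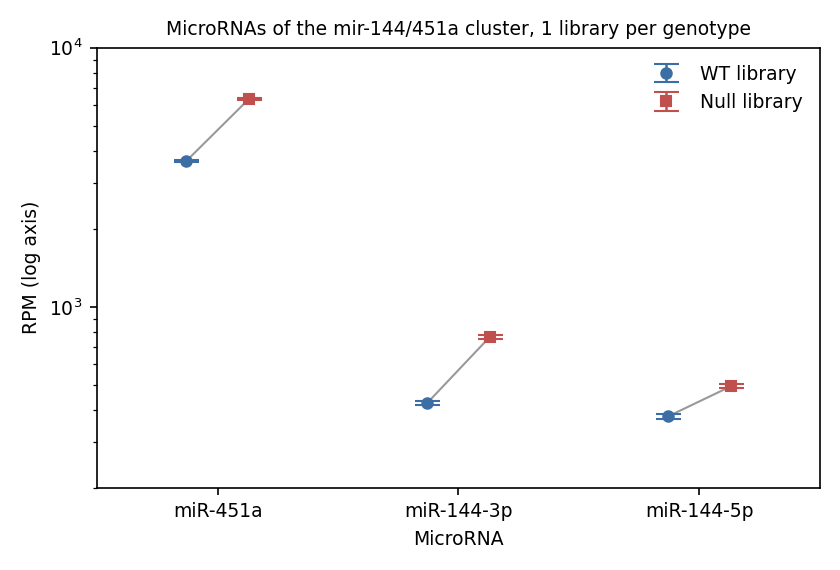
Level of miR-451a, miR-144-3p and miR-144-5p in RPM (log axis) in the WT library (circles) and the Null library (squares), with 95% exact Poisson intervals for counting error only. Each is higher in Null, by 1.74, 1.80 and 1.31 times, and the intervals are narrow because at least 8618 implied reads lie behind every value.

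Of the 8 members, 7 were higher in Null, with Hba-a2 near 0.1 FPKM in both pools. A direction alone says little on the microRNA side, where 75.2% of the 323 microRNAs were higher in Null, against 50.6% of the 11597 genes, and where miR-144-5p stood at rank 74 of 323. The sizes differed: the 4 globin genes together were 3.01 times as high in the Null pool, and the sum of the 3 microRNAs was 1.71 times as high in the Null library. As a share of the listed microRNA total, those 3 went from 0.286% to 0.482%. The labels do not say whether the same mice gave the RNA for both assays, and the scales have different bases, so the sizes were not compared further.

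**Figure D3:**
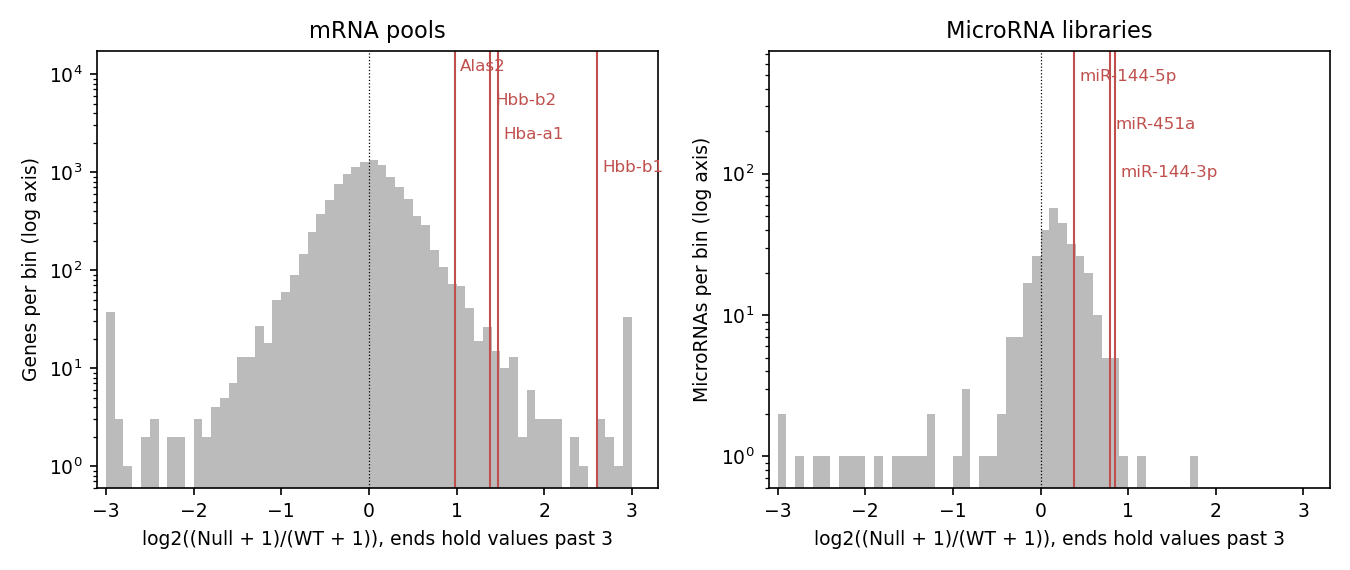
Distribution of log2((Null + 1)/(WT + 1)) over all 11597 genes (left) and all 323 microRNAs (right), count per bin on a log axis, with the end bins holding all values past 3. Vertical lines mark the members, which lie in the right tail except miR-144-5p at 0.38.

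Short genes as a class were higher in the Null pool, and the globin genes are short. By RefSeq (GRCm38.p6), Hba-a1, Hbb-b1 and Hbb-b2 span under 2 kb from first to last base. RefSeq also lists the adult beta-globin genes Hbb-bs and Hbb-bt, and which of these genes the authors' Hbb-b1 and Hbb-b2 rows stand for is not settled. The other 269 tested genes of up to 2 kb had a median difference of 0.36 on the log2 scale, with quartiles of 0.03 and 0.65, and 10.4% of them were higher by 2-fold or more. In genes of over 50 kb the median was -0.13. Of those 269 short genes, 2 were at or above Hba-a1, 7 at or above Hbb-b2 and 0 at or above Hbb-b1. The 69 ribosomal protein genes, which have short mRNAs, had a median of 0.90, and 7 of them were at or above Hba-a1. Relative to the median of its span class, Hba-a1 was at 1.12, Hbb-b2 at 1.03, Hbb-b1 at 2.25 and Alas2, which lies in the class of 10 to 50 kb, at 1.00. Over all 11597 genes, those past 2-fold were 252 higher and 191 lower as computed. Relative to the span classes, 105 were higher and 121 lower over the 11049 genes that had a span. The part of gene length in the globin values was not tested further.

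The other enzymes and carriers of haem synthesis did not differ as Alas2 did. All 14 listed genes were measured, and all 14 lay within 1.5-fold, with a median of -0.03. Alas1, the general form of the enzyme, was at 124 FPKM in WT against 104 FPKM in Null. It was 20.3 times as abundant as Alas2 in WT and 7.98 times in Null. The mitochondrial membrane proteins Tmem14c (327 and 345 FPKM) and Slc25a39 (229 and 208 FPKM) were the most abundant others. Brown fat makes haem for its own cytochromes, and these genes are expressed in most tissues.

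Globins that adult red cells do not use were at or near 0, lower in Null, or within 1.5-fold. Embryonic Hbb-bh1 and Hba-x and the theta-globin genes Hbq1a and Hbq1b were listed at 0 in both pools, and embryonic Hbb-y had 0 in WT against 0.180 FPKM in Null. Myoglobin, Mb, which holds oxygen in muscle, was at 278 FPKM in WT against 182 FPKM in Null, a log2 difference of -0.61. Cytoglobin, Cygb, of fibroblast-like cells, was at 12.1 and 14.0 FPKM.

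Genes of the red cell membrane were mostly at very low levels. Of 19 listed, 12 were under 1 FPKM in both pools. The anion exchanger Slc4a1 was at 0.0445 FPKM in WT against 0.0663 FPKM in Null. Of the 7 that passed the limit, 0 were higher by 2-fold, 0 were lower by 2-fold, and the median was -0.46. The most abundant were the water channel Aqp1 (214 and 239 FPKM) and glycophorin C, Gypc (67.4 and 74.9 FPKM), which other cells also make, and the actin-binding Epb4.9 (37.3 and 26.9 FPKM). The spectrin gene Spnb1 (1.98 and 0.600 FPKM) and the ankyrin gene Ank1 (2.28 and 1.05 FPKM) are also active in muscle. Spnb1 passed the limit only through its WT value, and with 0.1 FPKM added these 2 lay past the 2-fold line on the lower side. With no limit the median of the list was 0.

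Genes listed under red cell cytoplasm, not all of them for soluble proteins, had a median of 0.46 over the 10 that passed the limit and 0.14 with no limit. Of the 10, 8 were higher in Null, 3 of them by 1.5-fold or more and 0 by 2-fold. Catalase, Cat, was at 375 and 341 FPKM, peroxiredoxin 2, Prdx2, at 166 and 250 FPKM, and the mitophagy receptor Bnip3l, which clears mitochondria from maturing red cells, at 23.1 and 31.9 FPKM. Carbonic anhydrase 1, Car1, which is abundant in red cells, was at 0.662 and 1.74 FPKM. It passed the limit only through its Null value, and with 0.1 FPKM added it was the 1 gene of the list past 2-fold.

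Gata1, Gfi1b, Klf1 and Nfe2, regulators of red cell formation, were near 0, while others of the list were measured. GATA1 is the master factor of the lineage, and Gata1 was listed at 0 in both pools, as was Gfi1b. Klf1, which switches on adult beta-globin, was at 0.132 FPKM in WT against 0.0564 FPKM in Null, and Nfe2 at 0.115 and 0.117 FPKM. Of 11 listed, 6 passed the limit, 4 of them higher and 2 lower, and none by 2-fold with 1 FPKM added. Among those 6 were Tal1 (1.17 and 1.73 FPKM) and Zfpm1 (2.32 and 1.84 FPKM). The LIM-domain partners Ldb1 (26.4 and 31.9 FPKM) and Lmo2 (6.72 and 12.2 FPKM), which also act in endothelium, and the stem cell factor receptor Kit (7.83 and 7.05 FPKM) were the most abundant. The erythropoietin receptor Epor was at 1.53 FPKM in WT against 3.56 FPKM in Null, past 2-fold with 0.1 FPKM added.

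**Figure D4:**
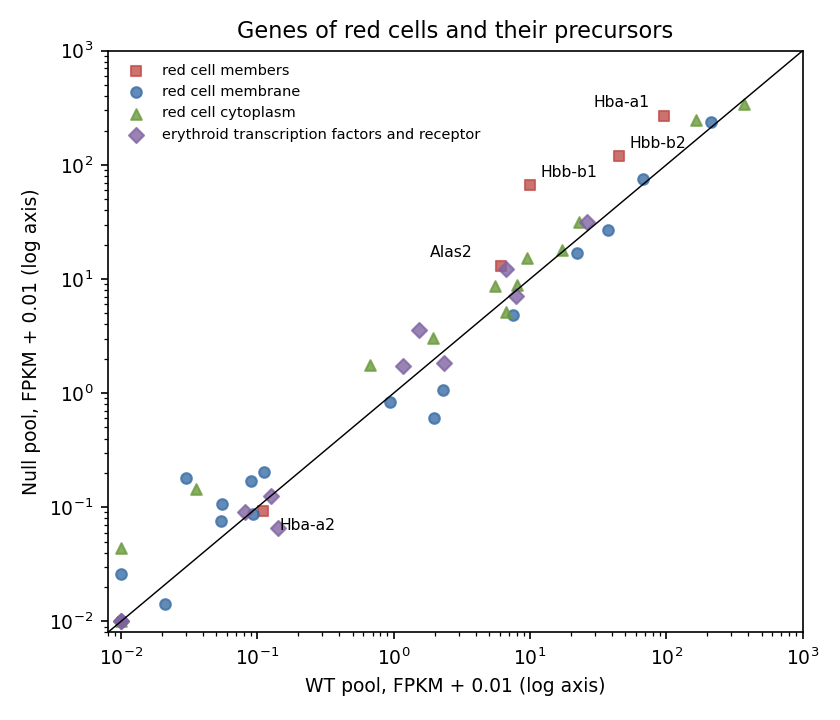
WT level against Null level, both as FPKM + 0.01 on log axes, for the members and the lists of red cell membrane, red cell cytoplasm and erythroid regulators; the line marks equal values. Hba-a1, Hbb-b1, Hbb-b2 and Alas2 lie above the line at 6 FPKM or more in WT, Hba-a2 lies near 0.1 FPKM, while precursor genes such as Slc4a1 lie under 0.1 FPKM.

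Iron and haem recycling genes gave 1 gene past 2-fold. Slc40a1 encodes ferroportin, which exports iron from macrophages that take up old red cells, and it was at 6.13 FPKM in WT against 14.2 FPKM in Null, a log2 difference of 1.09, which was under 2-fold with 5 FPKM added. Of the 8 measured clearance genes, 6 were higher and 2 lower, with a median of 0.13. Biliverdin reductase Blvrb was at 73.4 and 115 FPKM, and the haem-degrading Hmox1 at 11.7 and 13.3 FPKM. Of 12 iron genes, 5 were higher and 7 lower, none by 2-fold, with a median of -0.18. Ferritin heavy chain, Fth1, was at 2475 and 3074 FPKM, ferritin light chain, Ftl1, at 220.0 and 399 FPKM, and transferrin, Trf, at 118 and 101 FPKM. The transferrin receptor Tfrc, through which precursors take up iron, was at 22.0 FPKM in WT against 42.3 FPKM in Null.

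Markers of white blood cells, and some of vessels, were higher in the Null pool as well. Of 18 white blood cell markers in the table, 5 passed the limit, 2 of them (Cd79b and Nkg7) only through their Null values, so the count of those that passed is no measure of the list. The median was 1.13 over those 5, 0.35 with no limit and 0.38 with 5 FPKM added. Past 2-fold were the neutrophil genes S100a9 (2.23 and 12.0 FPKM) and S100a8 (1.14 and 4.83 FPKM) and the B cell gene Cd79b (0.356 and 1.97 FPKM). Cd79b was at 0.98 relative to its gene-span class, under 2-fold there. Other granulocyte genes of the list were under 1 FPKM in both pools. Csf3r was at 0.407 and 0.497 FPKM, Cxcr2 at 0.0355 and 0.0493 FPKM and Elane at 0.171 and 0.189 FPKM. Mpo was at 0.00859 and 0 FPKM, Ngp at 0 and 0.0350 FPKM and Camp at 0 and 0.173 FPKM. The cytotoxic cell gene Nkg7 was at 0.711 and 1.49 FPKM. Ptprc, a general marker of white blood cells, was at 1.49 and 2.19 FPKM, a log2 difference of 0.36. The summed level of the 18 was 7.47 FPKM in WT against 27.1 FPKM in Null, and Ltf was listed at 0 in both. Of 12 platelet markers, 10 were under 1 FPKM in both pools, with Pf4 at 14.1 and 22.8 FPKM, Nrgn at 2.42 and 2.87 FPKM, and Gp6 listed at 0 in both. All 12 endothelial markers were measured, 10 higher in Null and 2 lower, with a median of 0.17 and a summed level of 397 and 546 FPKM. Pecam1 (46.8 and 48.2 FPKM) and Cdh5 (61.0 and 61.2 FPKM) hardly differed, while Cldn5 (27.9 and 76.1 FPKM) and Egfl7 (63.7 and 141 FPKM) were higher by 2-fold or more. The part of white cells, platelets or vessels in the red cell values was not tested.

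Muscle markers differed between the pools in the other direction. Of the 12 skeletal muscle markers, 10 were lower in Null, 6 of them by 2-fold or more, with a median of -0.83 and a summed level of 3468 and 2551 FPKM. Those 6 were Acta1, Actn2 and the myosins Myh1, Myh2, Myh4 and Myh7. The part of muscle content in the red cell values was not tested. Of the 10 brown fat markers, 5 were higher in Null and 5 lower, with a median of -0.0031. Cox8b (6407 and 11163 FPKM), Ucp1 (3016 and 2487 FPKM), Cidea (2615 and 2717 FPKM) and Cox7a1 (2634 and 5343 FPKM) were abundant in both pools, as the tissue label says. Dio2 was at 18.6 and 9.05 FPKM, a log2 difference of -0.97. Elovl3 was at 88.3 and 17.5 FPKM, and the transcription regulators Prdm16 (6.91 and 6.58 FPKM), Zic1 (1.92 and 2.99 FPKM) and Lhx8 (2.08 and 3.43 FPKM) were low in both.

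**Figure D5:**
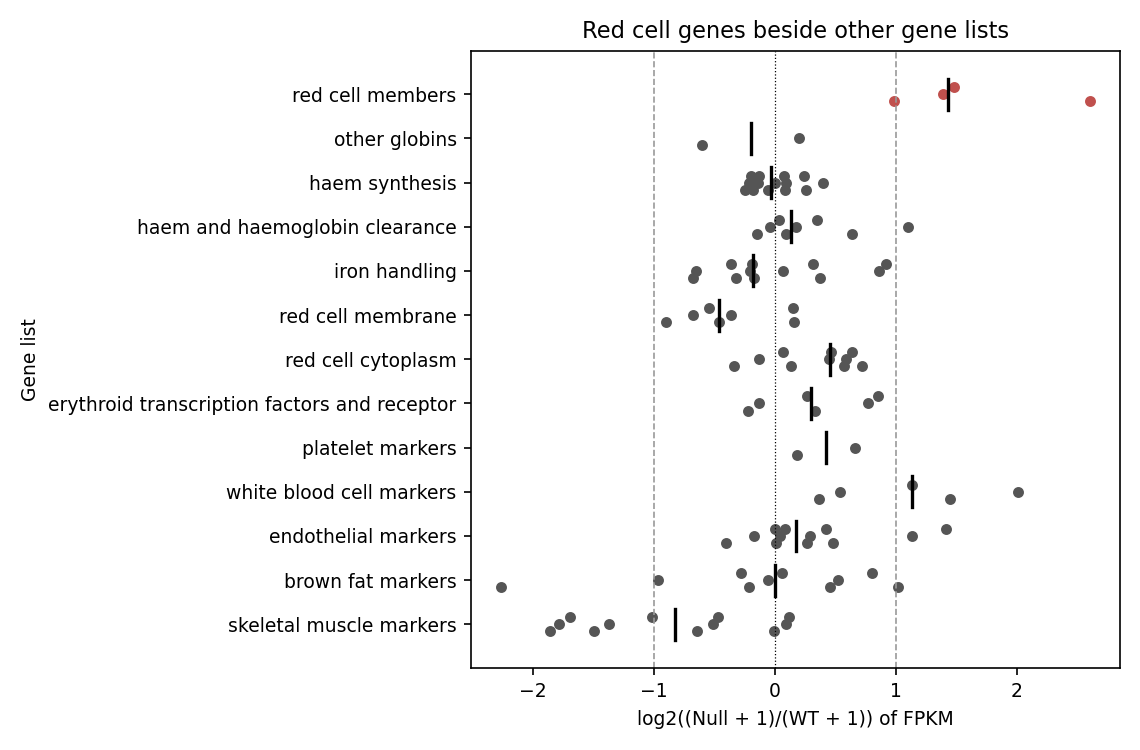
log2((Null + 1)/(WT + 1)) of FPKM for each measured gene (points) of the members and 12 other lists, with the list median as a black bar and 2-fold as dashed lines. The members have a median of 1.43, haem synthesis genes cluster around 0, and the bar of white blood cell markers (1.13 over the 5 genes shown) falls to 0.35 with no expression limit.

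Other microRNAs that red cells contain differed less as a list than miR-451a and miR-144-3p. Of 13 measured, 11 were higher in Null and 2 lower, and 1 reached 2-fold, with a median of 0.24 against 0.17 for all microRNAs. That 1 was miR-183-5p, at 581 RPM in WT against 1330.5 RPM in Null, a ratio of 2.29, and its cluster mates miR-182-5p and miR-96-5p had ratios of 1.42 and 1.05. miR-486-5p, which is abundant in red cells and is encoded within Ank1, was at 20866 and 24695 RPM, a ratio of 1.18. It is also abundant in muscle, and the 6 muscle microRNAs were all lower in Null by 2-fold or more, with a median of -2.10. The part of muscle content in the miR-486 values was not tested. The opposite arm, miR-486-3p, was at 52.6 and 35.8 RPM, a ratio of 0.681. The ratio of miR-486-5p to miR-451a was 5.71 in WT and 3.89 in Null.

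Of the 9 measured white blood cell and platelet microRNAs, 8 were higher in Null, 5 of them by 1.5-fold or more and 0 by 2-fold, with a median of 0.60. The highest differences were those of miR-146a-5p (141 and 278 RPM) and miR-146b-5p (279.9 and 521 RPM), of white blood cells, at 0.98 and 0.89. miR-142-5p was at 1498 and 2400.1 RPM, miR-150-5p of lymphocytes at 11014 and 11356 RPM, and miR-181a-5p at 15201 and 11827 RPM. The endothelial microRNAs miR-126-5p and miR-126-3p had log2 differences of 0.38 and 0.33. As a check of the genotype labels, miR-193b-3p was at 3705 RPM in the WT library and 11.5 RPM in the Null library.

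By likeness of the log2 difference alone, which rests on only 2 values per gene, the 5 genes of 10 FPKM or more on average nearest to the members' median of 1.43 were Rasd1, Gng11, Cd52, 1810022K09Rik and Cldn5, all between 1.42 and 1.43. Rasd1, a small GTPase, was at 43.7 and 120 FPKM, and the G protein subunit Gng11 at 51.2 and 140.1 FPKM. Cd52, a surface protein of lymphocytes, was at 11.8 and 33.6 FPKM. The 5 microRNAs nearest to miR-451a were miR-484, miR-574-3p, miR-3068-5p, miR-27a-5p and miR-335-3p, with differences from 0.75 to 0.86. The nearest, miR-484, was at 600 RPM in WT against 1027 RPM in Null.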

How the data were processed

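Per the labels, poly(A) mRNA libraries (TruSeq, 3 per genotype) and small RNA libraries (1 per genotype) were made from brown fat. The authors deposited FPKM as 1 column per genotype, so libraries were combined before deposit; how is not given in the sources used here, and mRNA depth is unknown. The microRNA values are a signal headed RPM per the file headers, beside the authors' deposited ratio and p-values. The submitters' processing notes name CASAVA, TopHat, BWA, edgeR, DESeq and mm9, without roles.

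Every RPM value was a whole multiple of 0.0438 (WT) or 0.0411 (Null) within 0.01 step, which gave implied reads, 35611070 and 38435013 over all listed microRNAs. The columns sum to 1559381 and 1578515, above 1000000, so RPM are not shares of microRNA reads. Reads of PCR copies are not independent molecules.

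A model over 6 libraries could not be fitted to 1 column per genotype. Differences used a pseudocount of 1 FPKM or 1 RPM, which understates low genes, and 2-fold as the line. Calculations used Python 3.11.15, pandas 2.3.3 and scipy 1.17.1, and were tested on simulated data. Members and lists were chosen with earlier results of these data known. Named genes were, per list, those past 2-fold or otherwise the 3 with the highest mean. Others were added after their values were seen, among them the globins listed at or near 0. From the red cell, iron and haem lists these were Slc4a1, Klf1, Nfe2, Gata1, Gfi1b, Tal1, Zfpm1, Epor, Tfrc, Car1, Hmox1, Blvrb, Spnb1 and Ank1. From the blood and vessel lists they were Pecam1, Cdh5, Flt1, Kdr, Ltf, Csf3r, Cxcr2, Elane, Mpo, Ngp, Camp, Gp6, Nkg7 and Ptprc. Brown fat markers so added were Ucp1, Cidea, Cox8b, Dio2, Prdm16, Zic1 and Lhx8. Target and processing genes so added were Ywhaz, Cab39, Rab14, Il6ra, Osr1, Zeb2, Dicer1 and Drosha. MicroRNAs so added were miR-146a-5p, miR-146b-5p, miR-486, miR-182-5p, miR-96-5p and miR-101a-3p. Older symbols were matched by hand (Epb4.9 is now Dmtn, Spnb1 is Sptb, Eif2c2 is Ago2). RefSeq supplied sequences and gene spans; 11049 of 11597 tested genes had a span. A withheld item is not reported here.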

Additional observations from a re-analysis of the deposited data

How the results depend on the processing

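No paired analysis was possible because each genotype has 1 combined mRNA column and 1 microRNA library, and for the same reason no replicate could be left out. Across 6 settings each, the log2 difference was 1.12 to 1.48 for Hba-a1, 2.24 to 2.71 for Hbb-b1, 1.03 to 1.41 for Hbb-b2, 0.70 to 1.08 for Alas2, 0.62 to 0.80 for miR-451a, 0.67 to 0.85 for miR-144-3p and 0.21 to 0.38 for miR-144-5p. The count of mRNA members past 2-fold was 3, or 4 with 0.1 FPKM added or quantile normalization. The count of microRNA members went from 0 to 2 when 1.5-fold was the line. The median of haem synthesis genes turned to 0.0079 under a 5 FPKM minimum, that of clearance genes to -0.0057 relative to gene-span classes, and that of brown fat markers to 0.0073 with 5 FPKM added and 0.068 relative to those classes; the cause was not tested. Over all genes, 252 higher and 191 lower went to 148 and 92 with 5 FPKM added and to 362 and 297 with 0.1 FPKM added. Relative to gene-span classes the counts were 105 and 121, over the 11049 genes that had a span. With 0.1 FPKM added, red cell membrane genes past 2-fold lower went from 0 to 2, and red cell cytoplasm genes and erythroid regulators past 2-fold higher from 0 to 1 each. White blood cell markers past 2-fold went from 3 to 1 with 5 FPKM added or a 5 FPKM minimum. Slc40a1 and Myc passed 2-fold with 1 FPKM added, and neither clearance genes nor reported miR-451a targets had a gene past it with 5 FPKM added, a count of 0. Gene-span classes were chosen after seeing the data, in place of the planned protein length classes, which were not run.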

Other observations

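Genes that mature or answer to these microRNAs were measured in the mRNA pools. Ago2, listed as Eif2c2, which cuts the mir-451a hairpin, was at 6.77 FPKM in WT against 2.72 FPKM in Null, a log2 difference of -1.06, while miR-451a was higher in Null. It was at -0.93 relative to its gene-span class, under 2-fold there and with 5 FPKM added. Of 11 genes of microRNA processing, 9 were lower and 2 higher, with a median of -0.21, or -0.081 relative to gene-span classes, and Eif2c2 was the 1 past 2-fold. Dicer1 was at 7.36 and 6.23 FPKM, and Drosha at 9.78 and 6.33 FPKM.

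Of the 7 genes listed as reported targets of miR-451a, 6 were higher in Null and 1 lower, and 4 lay within 1.5-fold. The lower 1 was Il6ra, at 3.01 and 1.65 FPKM, a log2 difference of -0.60. Rab14, counted as higher, was at 64.2 and 67.2 FPKM. The median, 0.18, is the value of Osr1 (0.892 and 1.14 FPKM), which passed the expression limit only through its Null value. Myc, a growth-promoting transcription factor, was at 1.99 FPKM in WT against 6.38 FPKM in Null, past 2-fold with 1 FPKM added but not with 5 FPKM. Ywhaz, a 14-3-3 protein and a known target in red cell precursors, was at 13.1 and 21.5 FPKM, and Cab39, a kinase scaffold, at 58.1 and 58.3 FPKM. Of the 5 listed for miR-144-3p, 4 were measured and none differed by 1.5-fold. Zeb2 was at 12.0 FPKM in each pool, and the other 3 were lower in Null, Nfe2l2, the regulator of antioxidant genes, at 37.9 and 36.2 FPKM, Klf2 at 28.8 and 22.2 FPKM and Foxo1 at 15.6 and 10.9 FPKM. miR-101a-3p, which has bases 2 to 7 in common with miR-144-3p, was at 6414 RPM in WT against 5409 RPM in Null.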
